A study of Mus musculus with 18 samples.

Results

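Overexpression of Psmb5 was compared with overexpression of mScarlet, a red fluorescent control protein, in neuronal cultures from mouse cortex. The comparison used 12 of the 18 libraries of the series: Psmb5 replicates 1 to 6 and mSc replicates 1 to 6, with same-numbered libraries taken as pairs. Genes were kept at a mean of 1 CPM (the library-scaled count unit of edgeR, with TMM factors) or more over these 12 libraries. That left 14328 genes other than Psmb5, of 15671 with enough counts to be fitted and 43629 gene IDs counted. The remaining 6 libraries carried Psmb8 and served to estimate the spread and for values side by side.

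All cultures had received lentivirus at 7 days in vitro and were collected 10 days later, and RNA was sequenced after poly(A) selection. The treatment tags name mSc or Psmb5 overexpression, while a protocol text common to all samples names an Ifng construct; Ifng itself had at most 1 count in any mSc library and at most 3 in any Psmb5 library. The sources used here do not give strain, age, promoter or the share of transduced cells. Nor do the labels say whether replicates came from separate animals, so a p-value refers to the scatter among the libraries at hand, some of which may be technical. Depth was 15337511 to 21074229 counts per mSc library and 16055974 to 19640543 per Psmb5 library.

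The 26S proteasome degrades ubiquitin-tagged proteins. Its 20S core is a barrel of α and β rings, closed at the ends by the 19S regulatory particle, which recognises, unfolds and feeds in substrates. Psmb5 encodes β5, the subunit with chymotrypsin-like activity and the main target of proteasome inhibitors, and Psmb8 encodes β5i, which replaces it in the interferon-inducible immunoproteasome. In many cells a shortage of proteasome activity raises all subunit genes together through the transcription factor Nfe2l1.

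The neuronal label fitted the markers, with glia present. Slc17a7, the vesicular glutamate transporter of cortical excitatory neurons, ranged from 588 to 1026 CPM in mSc and from 574 to 936 CPM in Psmb5 libraries. Gad1, which makes GABA, ranged from 217 to 347 CPM in mSc and from 203 to 323 CPM in Psmb5. The astrocyte intermediate filament Gfap ranged from 78.0 to 422 CPM in mSc and from 68.0 to 390 CPM in Psmb5, highest in replicate 1 of both groups. Aqp4, another astrocyte marker, ranged from 101 to 170 CPM in mSc and from 106.5 to 182 CPM in Psmb5. Olig2, of the oligodendrocyte lineage, ranged from 79.0 to 175 CPM in mSc and from 79.4 to 215 CPM in Psmb5. Some markers of microglia and endothelium were close to absent. Cx3cr1 had at most 2 counts in an mSc and 4 in a Psmb5 library, P2ry12 at most 2 and 5, and Cldn5 had 0 in all 12 libraries. Pdgfrb, another vascular marker, was present, from 3.29 to 16.3 CPM in mSc and from 4.59 to 15.1 CPM in Psmb5. The 16 microglia markers summed to 34.7 to 52.0 CPM in mSc and 35.4 to 51.7 CPM in Psmb5. In bulk RNA, fewer cells of a type and less RNA per cell cannot be told apart.

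Psmb5 (ENSMUSG00000022193; chromosome 14, 54614119 to 54618022, minus strand, GRCm38) was the only gene called in this comparison by edgeR's main fit. It stood at 41.0, 41.8, 42.3, 43.5, 43.9 and 45.1 CPM in mSc replicates 1 to 6. In Psmb5 replicates 1 to 6 it stood at 561, 238, 491, 462, 437 and 520 CPM. Every Psmb5 library lay far above every mSc library, and replicate 2 was the lowest of its group. The ratio within a pair ranged from 5.70 in pair 2 to 13.7 in pair 1, with a mean of 10.5 ± 2.67 (SD, n = 6 pairs). The fitted log2 fold change was 3.36 (SE 0.11, adjusted p = 4.6e-14, edgeR's quasi-likelihood test with Benjamini-Hochberg adjustment), and an exact two-sided sign-flip test over the 6 pairs gave p = 0.031, the smallest it can give. Gene counts do not separate the transgene from the chromosomal gene.

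Set against the rest of the core on a per-length scale, the transgene put Psmb5 far outside the range of its partners. Per kb of the principal transcript (899 nucleotides in 3 exons), Psmb5 stood at 47.8 ± 1.66 CPM per kb in mSc and 502 ± 126 CPM per kb in Psmb5 cultures (SD, n = 6 each). The 13 other core subunits spanned 17.4 to 86.9 CPM per kb in mSc, with a median of 51.7, and 17.1 to 84.2 CPM per kb in Psmb5, with a median of 53.3. Psmb5 was thus 0.924 times the median of its partners in mSc and 9.42 times it in Psmb5 cultures, where it was 5.97 times the highest of them. The length of the transcript made from the construct is not given in the sources used here and may differ from 899 nucleotides.

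The other 32 subunits of the core and of the regulatory particle did not follow Psmb5. All 32 had a 95% interval inside 1.2-fold in either direction; over all 14328 genes this held for 9854, or 68.8%. The lowest bound of any subunit was 0.920-fold and the highest 1.15-fold. Their median log2 fold change was 0.02, 21 of 32 lay above mSc (51.4% of all genes did), and none was called.

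By role, the α ring, which forms the gate of the barrel, had a median log2 fold change of 0.00 over 7 members, with 4 above mSc. Psma3, which takes part in that gate, ranged from 84.7 to 93.2 CPM in mSc and from 87.9 to 99 CPM in Psmb5, a log2 fold change of 0.06 (SE 0.04). The 6 other β subunits had a median of 0.04, with 5 above mSc. The catalytic subunits that share the chamber with β5 are Psmb6 (β1, caspase-like) and Psmb7 (β2, trypsin-like). Psmb6 ranged from 47.7 to 56.6 CPM in mSc and from 52.7 to 59.2 CPM in Psmb5, a log2 fold change of 0.06 (SE 0.04). Psmb7 ranged from 78.1 to 88.6 CPM in mSc and from 78.4 to 90.2 CPM in Psmb5, a log2 fold change of 0.02 (SE 0.04). In both genes the libraries of the 2 groups overlapped.

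In the 19S particle the median was 0.01 over 19 members, with 12 above mSc. At an unadjusted p under 0.05, 2 of 19 lay above mSc and 0 below, against 3.53% above and 3.55% below over all genes. These were Psmd7, a partner of the deubiquitinase of the lid, at 0.10 (SE 0.04, adjusted p = 0.68), and Psmd1, a scaffold of the base, at 0.08 (SE 0.04, adjusted p = 0.70; edgeR, Benjamini-Hochberg). Psmd7 ranged from 49.3 to 64.3 CPM in mSc and from 53.8 to 68.4 CPM in Psmb5, with overlap. Among 18 genes of assembly and control the median was 0.02, and 16 were bounded within 1.2-fold. Pomp, the maturation factor that helps insert β5 while the barrel is built, ranged from 39.5 to 50.5 CPM in mSc and from 39.6 to 52.0 CPM in Psmb5, a log2 fold change of -0.02 (SE 0.04). Nfe2l1, the factor behind the subunit response, ranged from 447 to 608 CPM in mSc and from 429 to 613 CPM in Psmb5, also at -0.02 (SE 0.04).

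**Figure D1:**
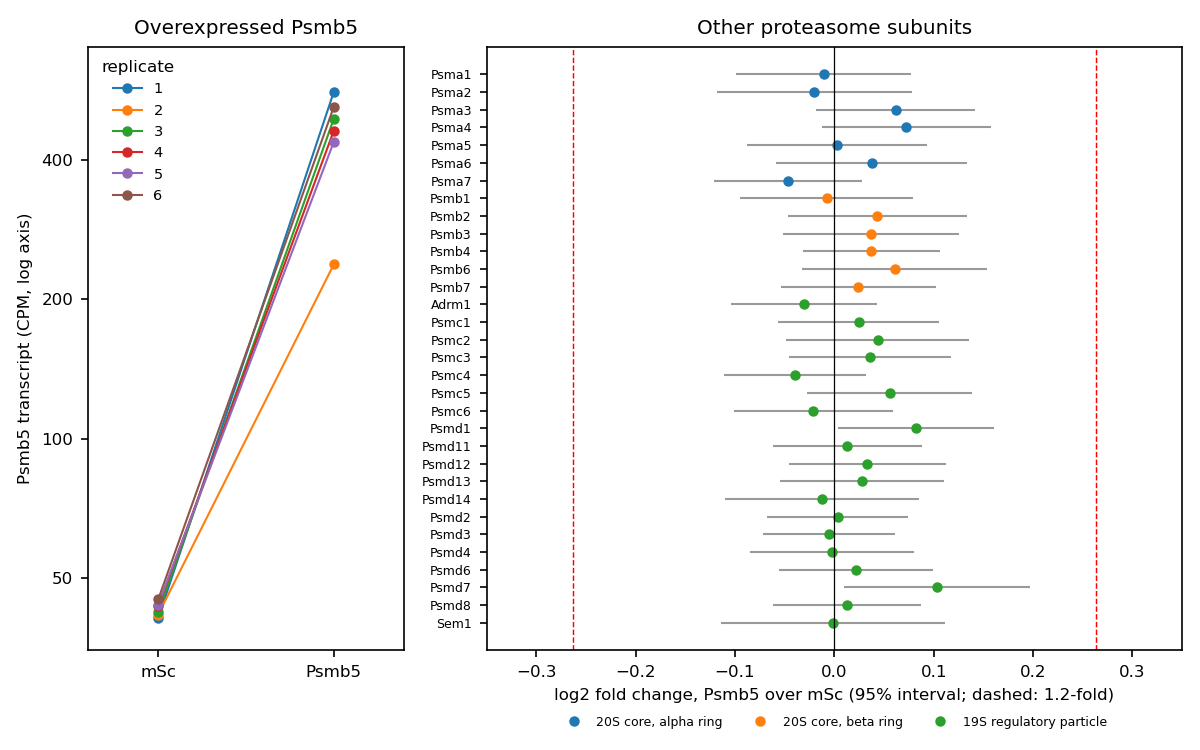
Left, Psmb5 transcript in CPM on a log axis, 1 line per same-numbered pair; every pair goes up, from 41.0 to 45.1 CPM in mSc to 238 to 561 CPM in Psmb5. Right, fitted log2 fold change with 95% interval of the other 32 subunits, coloured by subcomplex; all intervals lie between the dashed lines at 1.2-fold.

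Ubiquitin genes and the ubiquitin ligases, which supply the substrates, were as closely bounded: 27 of 27 had intervals inside 1.2-fold, with a median of 0.00. Cul3, the scaffold of a family of ligases, was the member with an unadjusted p under 0.05, at 0.09 (SE 0.04, adjusted p = 0.70). It ranged from 90.9 to 116 CPM in mSc and from 94.3 to 120 CPM in Psmb5, higher in 6 of 6 pairs, with overlap between the groups. Autophagy and lysosome genes, the other main route of protein breakdown, had a median of -0.00, and 28 of 29 were bounded within 1.2-fold.

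Beyond Psmb5, no gene passed the threshold. Of 14328 genes, 0 (0%) had an adjusted p under 0.05 in edgeR's quasi-likelihood test, and the smallest adjusted p was 0.17. At an unadjusted p under 0.05 there were 1014 genes (7.08%), 506 above and 508 below mSc. DESeq2's Wald test called 12 genes, limma-voom called 0, and edgeR without a low-count filter called 139 (136 at 1 CPM or more), so the absence of calls depends on the tool and the filter. A total of 302 genes (2.11%) were higher in all 6 pairs and 317 (2.21%) lower in all 6. The libraries of the groups did not overlap for 1 gene (0.00698%), the unannotated A930033H14Rik, at 2.81 to 4.57 CPM in mSc and 4.64 to 6.5 CPM in Psmb5; it was chosen after its values were seen.

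The fold changes themselves were small. Their median over all genes was 0.00 on the log2 scale with an SD of 0.11, and 95% of them lay between -0.23 and 0.23. No gene was estimated beyond 2-fold, 15 (0.105%) were beyond 1.5-fold, and 496 (3.46%) were beyond 1.2-fold. Of the 15 beyond 1.5-fold, 11 had a mean under 5 CPM. They included Pgbd1, a transposase-derived gene, at -0.86 (SE 0.20), from 0.987 to 2.05 CPM in mSc and from 0.629 to 1.36 CPM in Psmb5. At the other end stood Alyref2 at 0.68 (SE 0.22), from 0.676 to 1.0 CPM in mSc and from 0.851 to 1.76 CPM in Psmb5. Both are levels at which few reads carry the value.

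**Figure D2:**
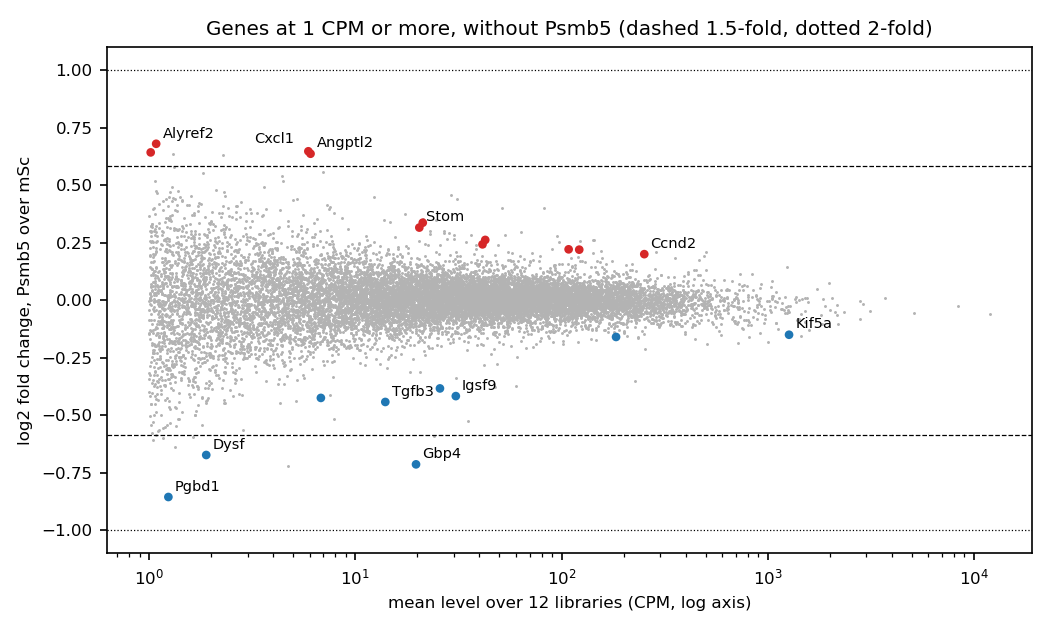
Fitted log2 fold change of Psmb5 over mSc against mean level in CPM (log axis), 1 point per gene for 14328 genes, with the genes of smallest p and of largest fold change in colour. The cloud narrows as the level rises, and no point passes the dotted lines at 2-fold.

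What the data bound can be read from the intervals. A gene that misses the threshold is not shown to be unchanged, but a 95% interval inside a limit puts a change larger than that limit outside the interval. The interval lay inside 1.5-fold for 13492 genes (94.2%) and inside 2-fold for 14287 (99.7%). The median interval reached 0.13 to either side of its estimate on the log2 scale, or 1.09-fold. Level set the bound: of 2788 genes at 1 to 5 CPM, 1.97% were bounded within 1.2-fold and 71.8% within 1.5-fold. Of 3473 genes at 5 to 20 CPM, 60.1% were bounded within 1.2-fold and 98.99% within 1.5-fold. At 20 to 100 CPM (5562 genes) the shares were 94.8% and 99.8%, and at 100 CPM or more (2505 genes) 97.4% and 99.96%.

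Intervals that reached past 1.5-fold belonged to 836 genes, of which 787 had a mean under 5 CPM. Among the other 49, picked here after their values were seen, were the guanylate-binding protein Gbp2 (35.1 CPM), the matrix proteins Tnc (82.1 CPM) and Acan (51.4 CPM), and the proliferation marker Mki67 (15.6 CPM). Their intervals were wider than the median interval at their level.

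**Figure D3:**
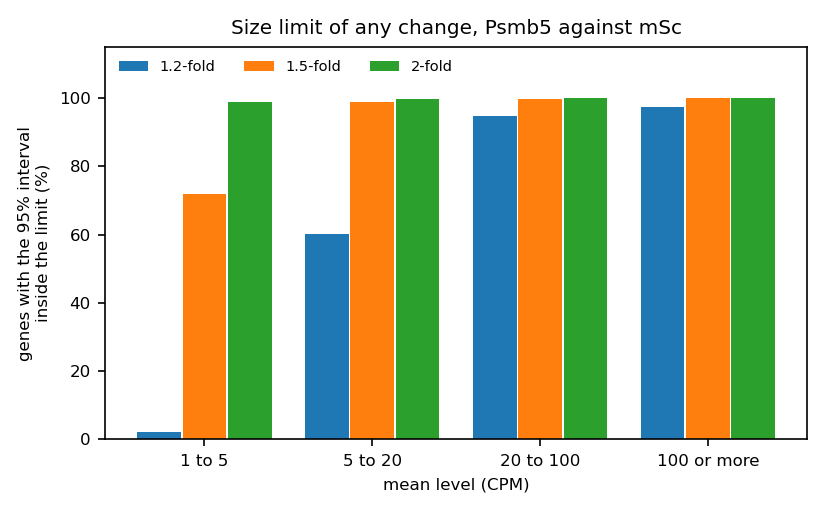
Share of genes, in percent, whose 95% interval lies inside 1.2-fold, 1.5-fold or 2-fold, by mean level in CPM. At 1 to 5 CPM 1.97% are bounded within 1.2-fold, and at 100 CPM or more 97.4% are.

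On the scale of whole libraries, 5 of 6 Psmb5 libraries were nearer to the mSc library of their number than to any library of their own group; replicate 3 was slightly nearer to Psmb5 replicate 6 (0.106) than to mSc replicate 3 (0.107). The median absolute log2 ratio over genes was 0.085 to 0.110 in the 6 same-numbered pairs. It was 0.099 to 0.197 (median 0.179) between mSc libraries and 0.106 to 0.207 (median 0.172) between Psmb5 libraries. Differently numbered libraries of the 2 groups differed by 0.101 to 0.207 (median 0.179). By these medians, replicate number went with larger differences than the transgene did.

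The 8 genes with the smallest p above mSc are of mixed roles, and none was called in edgeR's main fit. DESeq2's Wald test called Angptl2, Stom, Kctd12, Ccnd2 and Pfkfb3 among them. Angptl2, a secreted angiopoietin-like glycoprotein, stood at 5.69, 3.49, 3.68, 6.44, 4.14 and 5.04 CPM in mSc replicates 1 to 6 and at 9.32, 5.52, 6.86, 10.3, 7.24 and 5.10 CPM in Psmb5. It was higher in all 6 pairs, barely so in pair 6, and the groups overlapped; its log2 fold change was 0.64 (SE 0.12, adjusted p = 0.17, edgeR). Stom, the membrane protein stomatin, ranged from 15.3 to 22.0 CPM in mSc and from 18.6 to 25.7 CPM in Psmb5, at 0.32 (SE 0.06). Kctd12, an auxiliary subunit of GABA-B receptors, ranged from 15.4 to 23.3 CPM in mSc and from 19.7 to 27.5 CPM in Psmb5, at 0.34 (SE 0.07). Ccnd2, the cell-cycle regulator cyclin D2, ranged from 199 to 262 CPM in mSc and from 240 to 296 CPM in Psmb5, at 0.20 (SE 0.04). The rest were Pfkfb3 (0.26), Pdpn (0.24), Prkar2a (0.22) and Nr4a3 (0.22), which encode a glycolytic regulator, a membrane mucin, a regulatory subunit of protein kinase A and an activity-induced nuclear receptor.

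Among the 8 with the smallest p below mSc, Igsf9, an immunoglobulin-superfamily adhesion protein of dendrites and synapses, came first. It stood at 34.8, 52.9, 20.5, 21.0, 63.9 and 19.5 CPM in mSc replicates 1 to 6 and at 26.9, 42.1, 16.2, 16.4, 37.0 and 17.5 CPM in Psmb5. Each Psmb5 library was lower than its mSc partner, although the spread between replicates was wider than that step; the log2 fold change was -0.42 (SE 0.08, adjusted p = 0.17, edgeR). Tgfb3, a transforming growth factor, ranged from 11.9 to 21.3 CPM in mSc and from 8.62 to 14.0 CPM in Psmb5, at -0.44 (SE 0.09). Kif5a, a neuronal kinesin heavy chain, ranged from 1089 to 1535 CPM in mSc and from 931 to 1392 CPM in Psmb5, at -0.15 (SE 0.04). Iqsec3, a scaffold-linked exchange factor of inhibitory synapses, ranged from 177 to 220 CPM in mSc and from 156 to 185 CPM in Psmb5, at -0.16 (SE 0.04). The others were the linker histone Hist1h1c (-0.38), the membrane-repair gene Dysf (-0.67), Pgbd1 and the zinc-finger gene Zscan2 (-0.42). None of these 8 was called in edgeR's main fit, while DESeq2's Wald test called Igsf9, Tgfb3, Kif5a, Iqsec3 and Hist1h1c.

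**Figure D4:**
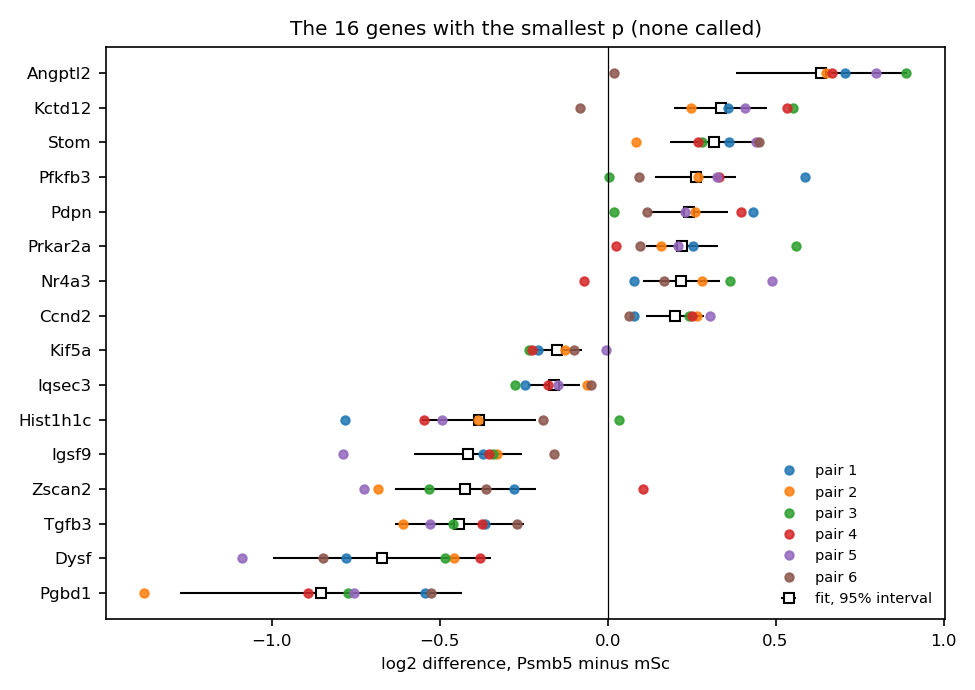
Log2 difference of Psmb5 minus mSc for the 16 genes with the smallest p, with the 6 pairs as coloured points and the fitted value with its 95% interval as a white square. The intervals exclude 0 because these genes were chosen for their p, and none passed the adjusted threshold in edgeR's main fit. Some of them were called by DESeq2's Wald test.

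Functional groups were described with 32 gene lists, 649 of whose entries were at 1 CPM or more; none of their members was called in edgeR's fit. Every list's counts are to be read against all 14328 genes, of which 51.4% lay above mSc and 48.6% below, and 3.53% lay above and 3.55% below at an unadjusted p under 0.05. Chaperones and stress programmes, which answer misfolded protein, lay close to mSc. Heat shock proteins and chaperones had a median of 0.02, 23 of 28 above mSc, and 27 of 28 bounded within 1.5-fold. At an unadjusted p under 0.05, 2 lay above, the co-chaperone Dnaja1 at 0.08 and Hspa4, an Hsp70 relative, also at 0.08. Genes of the integrated stress and unfolded protein responses had a median of 0.02 with 22 of 29 above mSc, and all 29 were bounded within 1.5-fold. Manf, a factor secreted under stress of the endoplasmic reticulum, was at 0.15 (SE 0.06), from 27.6 to 36.5 CPM in mSc and from 31.2 to 39.4 CPM in Psmb5. P53 targets and apoptosis genes had a median of 0.03 with all 24 inside 1.5-fold, and at an unadjusted p under 0.05 there were 3 above and 1 below. The one below was Bbc3, the pro-apoptotic PUMA, at -0.19 (SE 0.07), and Cdkn1a, the cell-cycle inhibitor p21, was at 0.14 (SE 0.06).

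Cholesterol synthesis was the list that leaned furthest above mSc, with 19 of 20 members above and a median of 0.12. At an unadjusted p under 0.05, 5 of 20 lay above and 0 below, against 3.53% and 3.55% of all genes. Hsd17b7, an enzyme of the late pathway, stood at 30.6, 14.1, 33.1, 29.7, 12.7 and 32.5 CPM in mSc and at 36.3, 19.8, 36.7, 41.4, 18 and 29.3 CPM in Psmb5, at 0.27 (SE 0.09, adjusted p = 0.59, edgeR). It was higher in pairs 1 to 5 and lower in pair 6. Idi1, the isopentenyl diphosphate isomerase, was at 0.34 (SE 0.14), and the late enzymes Cyp51 and Sc5d at 0.17 (SE 0.07) and 0.14 (SE 0.05). Hmgcs1, which makes HMG-CoA, was at 0.18 (SE 0.08). The mean over the list differed by 0.05, 0.17, 0.07, 0.30, 0.25 and -0.03 in pairs 1 to 6. Other targets of SREBP, the sterol-sensing factor that drives these enzymes, had 18 of 19 above mSc and a median of 0.07. Without replicate 4, whose pair had the highest mean of that list (0.242), the values were 12 of 19 and 0.03. A fall of the median follows from leaving out the highest pair, and pair 5 stood almost as high (0.240).

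Replicate number went with larger differences than the transgene did in Hmgcs1, which was chosen after its values were seen. It stood at 552, 179, 586, 585, 189 and 559 CPM in mSc replicates 1 to 6 and at 633, 223, 612, 676, 238 and 543 CPM in Psmb5. Replicates 2 and 5 were low in both groups, and the groups overlapped. LXR targets, which export sterol, had a median of -0.01, with Abcg1, a sterol exporter, at -0.15 (SE 0.06).

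Promoter sequence was examined for the lists whose known factors have a short binding motif, using RefSeq promoters of GRCm38.p6 from 250 bases before to 50 bases after the start. A sterol regulatory element, TCACNCCAC on either strand, occurred in 149 of 10795 matched genes at 1 CPM or more (1.38%), and in 408 of all 32851 promoters (1.24%). It was present in 1 of 15 matched cholesterol genes, Hmgcs1, and in 0 of 13 other SREBP targets. An antioxidant response element, TGACNNNGC on either strand, occurred in 1820 of the 10795 (16.9%) and in 6 of 20 matched NRF2 genes, Txnrd1 among them. A match is a description of letters in a window. The windows of Hmgcs1 (chr13:119690189-119690247, plus strand, upstream of the start) and Txnrd1 (chr10:82859089-82859147, plus strand, upstream of the start) are shown as the members of each list that had both a motif and an unadjusted p under 0.05, with the match in capitals; in Txnrd1 it reads on the reverse strand.
Hmgcs1: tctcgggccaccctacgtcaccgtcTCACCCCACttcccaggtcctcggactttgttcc
Txnrd1: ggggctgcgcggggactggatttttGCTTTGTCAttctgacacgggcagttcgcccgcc
Genes with the sterol element had a median log2 fold change of 0.01 and genes without it 0.00.

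NRF2 targets and glutathione genes, which defend against oxidants, had a median of 0.06 with 18 of 24 above mSc (51.4% of all genes were). Of the 24, 4 lay above and 0 below at an unadjusted p under 0.05, against 3.53% and 3.55% of all genes. Txnrd1, the cytosolic thioredoxin reductase, was at 0.18 (SE 0.08), from 89.5 to 197 CPM in mSc and from 125 to 294 CPM in Psmb5. Its highest library in each group was replicate 4. Gclc, the catalytic subunit that limits glutathione synthesis, was higher in 6 of 6 pairs by a log2 fold change of 0.08 (SE 0.03). The pentose phosphate pathway, a source of NADPH, had a median of 0.05 with 8 of 11 above.

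Energy metabolism was closely bounded where it is encoded in the nucleus. Respiratory chain and ATP synthase genes had a median of 0.01, and 36 of 37 were bounded within 1.2-fold. Glycolysis genes had a median of 0.02 and 25 of 27 were bounded within 1.2-fold. The member with the smallest p was Pfkfb3, which makes the activator of glycolysis fructose 2,6-bisphosphate. It stood at 26.5, 34.6, 44.2, 44.1, 40.8 and 43.2 CPM in mSc and at 39.8, 41.8, 44.3, 55.4, 51.2 and 46.1 CPM in Psmb5. All 6 pairs were higher, by very little in pair 3, and the log2 fold change was 0.26 (SE 0.06, adjusted p = 0.31, edgeR).

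Transcripts encoded in mitochondrial DNA leaned the other way, with 11 of 13 below mSc and a median of -0.06. Mt-Co3, a core subunit of cytochrome oxidase, stood at 31.9, 51.3, 30.4, 37.6, 40.7 and 15.2 CPM in mSc and at 34.7, 33.7, 28.6, 24.5, 26.3 and 15.2 CPM in Psmb5. The fold change was -0.34 (SE 0.10, adjusted p = 0.53, edgeR), pair 1 was higher and pair 6 nearly level. Mt-Co3 was called by edgeR without a low-count filter, and without replicates 1, 3 and 6, a choice made after seeing the data. mt-Nd3, a subunit of complex I, was lower in 6 of 6 pairs by smaller steps, at -0.19 (SE 0.05). Nuclear copies of mitochondrial DNA can share such reads, and how these were counted is not given in the sources used here.

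Interferon-stimulated genes leaned below mSc and were loosely bounded. Of 31 members 28 lay below (48.6% of all genes did), and the median was -0.14. At an unadjusted p under 0.05, 5 were below and 0 above, against 3.55% and 3.53% of all genes. Intervals inside 1.2-fold were found for 4 of 31 and inside 1.5-fold for 20 of 31. Gbp2 stood at 4.26, 2.74, 50.4, 3.42, 5.05 and 182 CPM in mSc and at 3.31, 2.93, 23.0, 1.87, 5.94 and 136 CPM in Psmb5. Replicates 3 and 6 were high in both groups, and Psmb5 was lower than its partner in 4 of 6 pairs; the log2 fold change was -0.52 (SE 0.14, adjusted p = 0.44, edgeR). Irf1, a transcription factor of the interferon response, ranged from 7.11 to 41.5 CPM in mSc and from 5.75 to 35 CPM in Psmb5, lower in 6 of 6 pairs, at -0.25 (SE 0.10).

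The lean of the interferon list followed a few pairs. Its mean differed by -0.44, 0.05, -0.53, -0.07, 0.24 and -0.14 in pairs 1 to 6. Without replicate 3 the median was -0.05, and without replicates 1, 3 and 6 it was 0.11, with 20 of 29 above mSc. That last choice was made after the data were seen. Pairs 1, 3 and 6 had the lowest list means, so a rise of the median follows from leaving them out. Immunoproteasome and MHC class I genes, which interferon induces, had 12 of 15 below and a median of -0.09. Psmb8 itself ranged from 0.840 to 19.4 CPM in mSc and from 0.488 to 14.6 CPM in Psmb5, at -0.34 (SE 0.50). Psmb9, the β1i subunit, ranged from 0.709 to 16.7 CPM in mSc and from 0.813 to 14.1 CPM in Psmb5, at -0.28 (SE 0.14). Psmb10, the β2i subunit, ranged from 15.8 to 29.6 CPM in mSc and from 16.1 to 26.7 CPM in Psmb5, at -0.05 (SE 0.06).

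Neuronal function genes were bounded more tightly. Voltage-gated channels and calcium pumps had 22 of 28 below mSc with a median of -0.04, and all 28 were inside 1.2-fold. Glutamate receptors and postsynaptic scaffolds had a median of -0.02 and 26 of 28 inside 1.2-fold, with 0 above and 3 below at an unadjusted p under 0.05. Grin1, the obligatory NMDA receptor subunit, stood at 903, 682, 948, 895, 724 and 958 CPM in mSc and at 744, 673, 859, 654, 741 and 911 CPM in Psmb5. It was lower in 5 of 6 pairs, with overlap, at -0.16 (SE 0.05, adjusted p = 0.62, edgeR). Presynaptic release genes had a median of -0.01, and 25 of 28 were inside 1.2-fold.

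Genes that neuronal activity induces had 23 of 30 above mSc (51.4% of all genes were) and a median of 0.06. Of the 30, 7 lay above and 0 below at an unadjusted p under 0.05, against 3.53% and 3.55% of all genes. Nr4a3 stood at 122, 89.4, 139, 106, 85.6 and 133 CPM in mSc and at 129, 109, 179, 101, 120 and 150 CPM in Psmb5, at 0.22 (SE 0.05, adjusted p = 0.39, edgeR). Pair 4 alone was lower. Inhba, an activin subunit, was at 0.52 (SE 0.16), at 1.25 to 6.98 CPM in mSc and 1.42 to 11.7 CPM in Psmb5. The list mean differed by 0.16, 0.09, 0.18, -0.20, 0.23 and 0.06 in pairs 1 to 6, and pair 4 went against the rest.

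Ribosomal protein genes gave a small offset: 29 of 39 lay below mSc, the median was -0.02, and 38 were inside 1.2-fold. Rps2, a small-subunit protein, ranged from 700 to 835 CPM in mSc and from 648 to 797 CPM in Psmb5, lower in 6 of 6 pairs, at -0.12 (SE 0.05). Ribosomal genes have many processed copies whose reads may be shared.

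Markers of cell types lay near mSc, with an SD between pairs larger than the median in every list except excitatory neurons. Astrocyte markers had a median of 0.05 with 12 of 16 above, and inhibitory neuron markers -0.06 with 5 of 16 above. Excitatory neuron markers had a median of -0.03 with 6 of 16 above, an SD between pairs of 0.03, and 5 of 6 pairs lower. The summed level of 17 astrocyte markers ranged from 3741 to 10642 CPM in mSc and from 3809 to 8786 CPM in Psmb5. Oligodendrocyte lineage markers summed to 269 to 1044 CPM in mSc and 254 to 1175 CPM in Psmb5, and the list's mean ranged from -0.70 in pair 6 to 0.84 in pair 3. Cycling-cell markers ranged from -0.81 in pair 6 to 0.77 in pair 3, at summed levels of 103 to 209 CPM in mSc and 94.5 to 252 CPM in Psmb5. The part of these mixtures in the leaning lists was not tested.

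**Figure D5:**
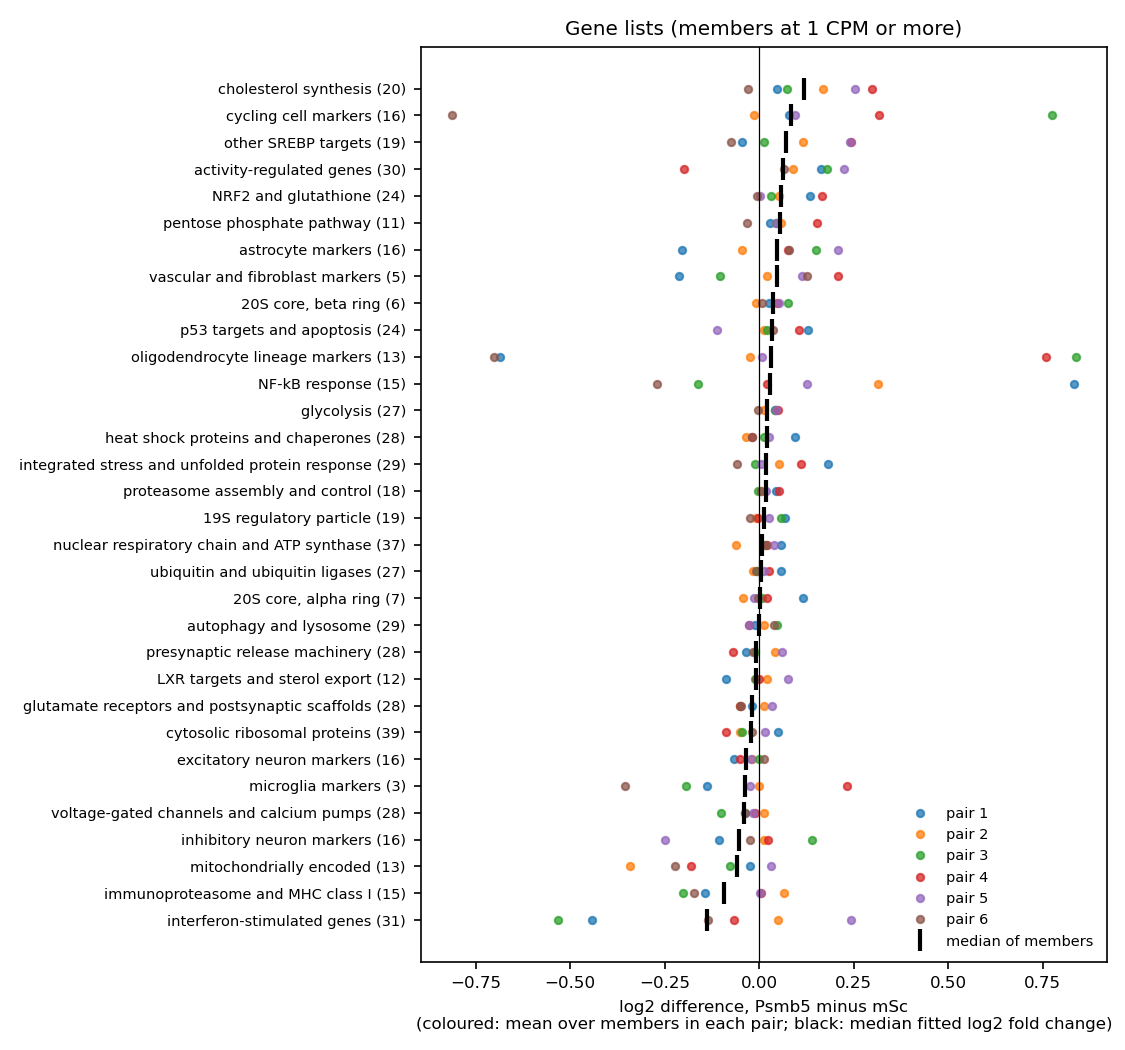
Log2 difference of Psmb5 minus mSc for 32 gene lists, with the number of members at 1 CPM or more in brackets; coloured points are list means in the 6 pairs and black ticks the median fitted log2 fold change. Medians run from -0.14 for interferon-stimulated genes to 0.12 for cholesterol synthesis. For the interferon, cell-cycle and oligodendrocyte lists the pairs scatter to both sides of 0, and for cholesterol synthesis 5 of 6 pairs lie above it.

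The fold changes also leaned with base composition. Over the genes with a GC value (99.4%), the median log2 fold change was 0.02 in the fifth of lowest GC and -0.03 in the fifth of highest GC. Pair 6 ran the other way, from -0.04 to 0.03. Removing a GC trend in each library left 0 genes called, and the median of cholesterol synthesis was then still 0.12. The median GC of that list was 49.7%, close to that of the genes of middle GC (50.2%). Those genes had a median log2 fold change of 0.004, so the removal had little to take from this list. Its unchanged median therefore does not test a part of GC in its lean.

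Cultures overexpressing Psmb8, the inducible counterpart of Psmb5, were measured in the same series and share the mSc libraries as controls. In that comparison 51 genes (0.356%) were called by edgeR, or 50 other than Psmb8. Of these 50, 30 also had an unadjusted p under 0.05 for Psmb5 against mSc, as did 7.08% of all genes. Both comparisons use the same mSc libraries, so part of this overlap follows from the design. The share over all genes does not allow for that. In the test of Psmb8 against Psmb5, 42 of the 50 had an unadjusted p under 0.05 (7.98% of all genes did). Of the 50, 3 were called in that test. Their median absolute log2 fold change against mSc was 0.28 in Psmb8 and 0.12 in Psmb5 cultures. The 50 were chosen by their values in Psmb8 cultures, so larger values there follow in part from the choice. Over all genes the median absolute log2 fold change against mSc was 0.056 in Psmb8 and 0.050 in Psmb5 cultures. Some leans of the lists were shared, but an offset of the mSc libraries alone would give the same lean in both groups. Shared leans are therefore not independent support. Cholesterol synthesis had a median of 0.14 in Psmb8 cultures, with 20 of 20 above mSc. Interferon-stimulated genes were at -0.26 with 5 of 31 above, and mitochondrially encoded transcripts at -0.06 with 0 of 13 above. Activity-regulated genes did not share theirs, at 0.00 with 16 of 30 above. Differences of lists between the overexpression groups were not tested. The 32 subunits had a median of 0.13 in Psmb8 and 0.02 in Psmb5 cultures. The difference between the overexpression groups, Psmb8 minus Psmb5, was above 0 for 32 of 32 subunits (49.9% of all genes) with a median of 0.13. It reached an unadjusted p under 0.05 for 23 of them (7.98% of all genes reached it in either direction, and 3.9% lay higher in Psmb8), and 0 were called, with a smallest adjusted p of 0.088.

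Tested directly, 5 genes (0.0349%) differed between the overexpression groups. Besides Psmb8 these were Lsm11, a component of histone pre-mRNA processing, at -0.35, Pdpn at -0.36, Slc25a22, a mitochondrial glutamate carrier, at -0.21, and Mgst3, a microsomal glutathione transferase, at 0.25 (Psmb8 minus Psmb5, log2). Pdpn stood at 21.7, 31.8, 44.3, 61.3, 26.6 and 41.6 CPM in mSc and at 29.3, 38.1, 44.8, 80.7, 31.2 and 45.1 CPM in Psmb5. It was above mSc in Psmb5 cultures by 0.24 (SE 0.06) and below it in Psmb8 cultures, at -0.12, neither called.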

How the data were processed

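Raw read counts for Ensembl genes were deposited by the authors as 1 table with 1 column per library; its values are whole numbers with different library totals. STAR 2.4 and DESeq2, and the builds GRCm39 and mm10, are named in the submitters' processing notes without a role; the sources used here do not give the counter or its strand setting. Symbols were found for 42462 of 43629 IDs, and coordinates come from GENCODE vM21 on GRCm38, which may not be the build of the counts. At the lowest total a gene at 1 CPM has about 15 counts, so counting error limits low genes.

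Counts of all 18 libraries were fitted with edgeR 4.0.16 in R 4.3.3 (filterByExpr, TMM, quasi-likelihood test, replicate number and group as terms), with Benjamini-Hochberg adjustment over 15671 genes at 0.05. Intervals are Wald intervals at 95%. The replicate numbers were taken as pairs: deviations from the group means correlated at 0.66 to 0.79 (mean 0.73) in 6 same-numbered pairs and at a mean of -0.14 (range -0.59 to 0.73) in 30 others. The biological coefficient of variation was 5.94%. List means are mean log2(CPM + 1) for levels and mean log2 differences for pairs. The fit was also run on counts simulated from its own model, which cannot show how well that model holds for these libraries.

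The members, gene lists and rules were chosen with earlier results of these data known. Genes named are Psmb5; the 8 smallest p in each direction; the 3 highest and 3 lowest fold changes; proteasome genes; and per list up to 4 members with an unadjusted p under 0.05. Others are marked as chosen after their values were seen, or are cell type markers. Alternatives were DESeq2 1.42.0, limma-voom (limma 3.58.1), DESeq2's size factors, library totals that leave out the transgenes, other filters, 12 libraries only, no replicate block and each replicate left out; removal of a GC trend and of replicates 1, 3 and 6 was added after seeing the data. Some genes of the lists are counted but not reported here by name.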

Additional observations from a re-analysis of the deposited data

Results flagged for a closer look

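In 8 of 138 groups of 6 libraries examined (levels of gene lists and of single genes), 1 library stood far from the other 5, where chance gives about 1 in 20. Levels of lists are means of log2(CPM + 1). Replicate 1 had the highest astrocyte marker level in mSc (7.77) and in Psmb5 (7.56), the lowest p53 target level in mSc (5.20) and the lowest microglia marker level in Psmb5 (3.11). Replicate 4 had the highest pentose phosphate level in Psmb5 (5.03) and the highest Pdpn in Psmb5 (80.7 CPM). Gbp4, an interferon-induced guanylate-binding protein, was highest in replicate 6 of mSc (105 CPM) and of Psmb5 (83.5 CPM).

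The responses to Psmb8 and to Psmb5 differed by edgeR's test of the difference itself for Lsm11 (-0.35), Pdpn (-0.36), Slc25a22 (-0.21) and Mgst3 (0.25), as Psmb8 minus Psmb5 on the log2 scale.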

How the results depend on the processing

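Leaving out the replicate block (the pairing) kept 0 genes called and left 111 genes at an unadjusted p under 0.05, against 1014 with it. The number of genes called other than Psmb5 was 1 in the fit of the mSc and Psmb5 libraries alone (Tgfb3), 12 with DESeq2's Wald test (Igsf9, Angptl2 and Tgfb3 among them) and 139 with no low-count filter. Leaving out 1 replicate gave 0 to 2 called genes (Angptl2 and Kctd12 without replicate 6). Leaving out replicates 3 and 6 gave 1 (Hist1h1c), and leaving out 1, 3 and 6, chosen after seeing the data, gave 2 (mt-Co3 and Gm29216). The causes were not tested. Other size factors, limma-voom, minimums of 1 and 5 CPM and GC removal gave 0. The number of genes bounded within 1.5-fold was 11492 (minimum of 5 CPM) to 13765 (no filter). A minimum of 5 CPM leaves fewer genes to count, so the lower number is not by itself a lower share. The fold change of Psmb5 was 3.28 to 3.51 on the log2 scale without 1 replicate. The call of Psmb5 held under every alternative run. The median of interferon-stimulated genes changed sign without replicates 1, 3 and 6 (0.11), the pairs with the lowest means of that list. Depth limits genes under 5 CPM.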

Other observations

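Processed pseudogenes leaned below mSc: 46 of 132 at 1 CPM or more lay above it and their median log2 fold change was -0.08, against a median of 0.00 over 13161 protein-coding genes. Unprocessed pseudogenes, with 7 of 21 above, had a median of -0.13. Reads of such copies can be shared with their parent genes, and their part in this value was not tested.

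Cxcl1, a chemokine that NF-kB induces, gave one of the highest fold changes from a few libraries. It stood at 0.582, 2.56, 6.35, 10.5, 4.32 and 4.0 CPM in mSc replicates 1 to 6 and at 7.86, 7.13, 5.91, 13.7, 4.19 and 3.95 CPM in Psmb5, higher in pairs 1, 2 and 4 and lower in the other 3. The fitted log2 fold change was 0.65 (SE 0.27, adjusted p = 0.67, edgeR).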
